A study of Bos taurus with 60 samples.

Results

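The control heifers whose endometrium held abundant MX2 RNA were compared between a low and a high plane of nutrition after insemination. A heifer was included where log2(CPM + 1) of ENSBTAG00000008471, named as MX2 in the rule that defines these heifers, was above 5.5, with CPM being counts per 1000000 of the total count of that library. This held for 21 of the 28 control heifers, out of 60 heifers sequenced in all. They were 10 CON_Low and 11 CON_High heifers.

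All were nulliparous crossbred beef heifers with synchronised oestrus, and all were inseminated with semen of the same sire. The control heifers had received a straw and concentrate ration with a rumen-protected palmitic acid supplement, without the n-3 polyunsaturated fatty acid (PUFA) product, for the 30 days before insemination. CON_High heifers then remained on that high plane of nutrition, and CON_Low heifers were restricted to a low plane, for 16 days until slaughter, when the uterine horns were flushed and endometrium was dissected off the muscle layer of the horn on the side of the corpus luteum. PUFA_Low and PUFA_High heifers differed from them in having received the fish-oil-based n-3 PUFA product in place of palmitic acid, and 25 of them (11 PUFA_Low and 14 PUFA_High) were above the same MX2 threshold. The labels of the individual PUFA heifers put 15 in PUFA_Low and 17 in PUFA_High, whereas the design text of the series gives those group sizes the other way round. The study's methods state the sizes that the heifer labels give, although their tally by conceptus status follows the design text. Labels by heifer were used here, and the question does not touch the control heifers, of which both sources place 14 on each plane.

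In cattle, the elongating conceptus secretes interferon tau around the time at which these tissues were taken. The endometrium responds through the type I interferon receptor by transcribing interferon-stimulated genes, among them MX2, which encodes a dynamin-like GTPase known for antiviral activity. The response is part of the maternal recognition of pregnancy. Conceptus status of single heifers was not among the labels used here, and the MX2 rule is not a classification of pregnancy. Whether other interferon-stimulated genes, or the defining markers of endometrial cell types, were present was not checked here. The gene table used here did not pair the gene identifiers of the counts with symbols.

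The values that chose the heifers were well apart from the threshold. MX2 was 7.85 at the lowest, 10.05 at the median and 11.09 at the highest on the log2(CPM + 1) scale among the 10 CON_Low heifers. Among the 11 CON_High heifers it was 8.21, 10.15 and 11.17. The planes therefore covered nearly the same range. Just outside the threshold stood CON_Low replicate 8 at 3.78, and just inside it CON_Low replicate 12 at 7.85, so that no control heifer lay between those values. On the linear scale the selected heifers ran from 230.4 to 2298 CPM and the other 7 control heifers, 4 CON_Low and 3 CON_High, from 2.48 to 12.8 CPM. MX2 rested on 2353 to 27468 counts in each selected heifer. The mean was 1155 ± 636 CPM in CON_Low (SD, n = 10) and 1209 ± 745 CPM in CON_High (SD, n = 11), given as a description with no test because MX2 set the selection.

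**Figure D1:**
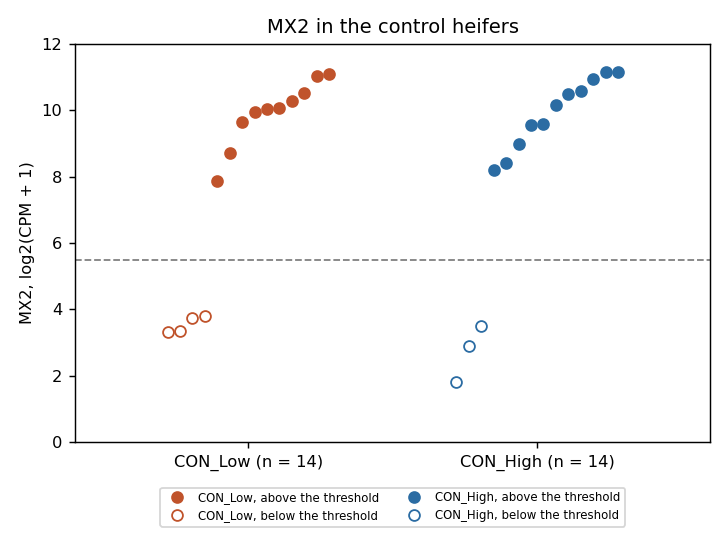
MX2 in each of the 28 control heifers, as log2(CPM + 1), by plane of nutrition. Filled points are the 10 CON_Low and 11 CON_High heifers above the threshold of 5.5 (dashed line), open points the 7 below it, and no heifer lies between 3.78 and 7.85; points are spread sideways in order of value.

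Depth and composition were similar in range on the planes. Total counts ran from 9712703 to 13144584 in CON_Low and from 10972431 to 13306629 in CON_High, and the means differed by less than the spread between heifers (two-sided permutation test, 100000 resamples, p = 0.628; 0.853 after Benjamini-Hochberg adjustment over 3 library measures). Genes with at least 1 count numbered 16739 ± 141 (SD, n = 10) in CON_Low and 16725 ± 180 (SD, n = 11) in CON_High (permutation test, p = 0.853, adjusted 0.853). The 100 most abundant genes of each library took 21.7% ± 1.93 of its counts in CON_Low (SD, n = 10) and 22.6% ± 3.102 in CON_High (SD, n = 11; permutation test, p = 0.459, adjusted 0.853).

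Some libraries stood apart from the others of their plane. In CON_High replicate 11 the 100 most abundant genes held 29.3% of counts, the highest share of the 21 heifers, and its root mean square distance from the median of its plane was 0.795 on the log2 scale, against a median of 0.468 over all 21. The next distances were 0.637 in CON_Low replicate 2, with a share of 26.2%, and 0.619 in CON_High replicate 7. Where leaving out CON_High replicate 11 or CON_Low replicate 2 moved a count much, it is given below with and without them.

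The heifers varied along a pair of axes on which the planes overlapped. The first principal component of log2 CPM held 21.7% of the variance and averaged -4.80 ± 21.8 in CON_Low (SD, n = 10) and 4.37 ± 28.7 in CON_High (SD, n = 11). Across the 21 heifers it was higher where that share of the 100 leading genes was higher (Pearson r = 0.846, Spearman rho = 0.655). Without CON_High replicates 8 and 11, the heifers farthest from the median share, r was 0.706 over 19. The second component held 15.4% of the variance and ordered the heifers by MX2, with rho = -0.919 over the 21 heifers (the sign of a component is arbitrary). These values are given as a description, since the components, the share and MX2 come from the same counts.

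**Figure D2:**
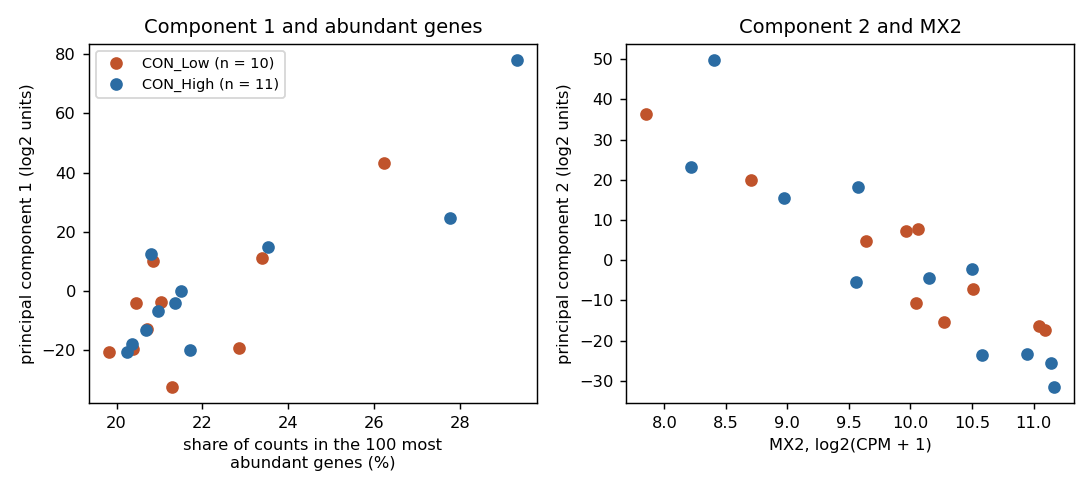
Principal components of log2 CPM in the 21 MX2-high control heifers, each point 1 heifer coloured by plane. Left, component 1 against the percentage of counts that fell on the 100 leading genes, with CON_High replicate 11 at the upper right at 29.3%; right, component 2 against MX2 as log2(CPM + 1), where heifers of both planes are intermingled.

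Between the planes no gene met the criteria for a differentially expressed gene (DEG), namely a fold change of more than 1.5 together with an adjusted p-value below 0.1. Of 13968 genes tested in the 21 heifers, the quasi-likelihood test of edgeR, adjusted by Benjamini and Hochberg, gave 0 DEG (0%), with a smallest adjusted p of 0.998. At an unadjusted p under 0.05 there were 241 genes (1.73%), of which 70 were higher (0.501%) and 171 lower (1.22%) in CON_Low. An even spread of p-values would have placed 698 genes there. Without CON_High replicate 11 there were 153 such genes and without CON_Low replicate 2 there were 444, with 0 DEG in both fits. DESeq2, edgeR's likelihood ratio test and limma-voom each gave 0 DEG as well, with 270, 234 and 183 genes at an unadjusted p under 0.05. No gene had CPM values that failed to overlap between CON_Low and CON_High (0%).

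**Figure D3:**
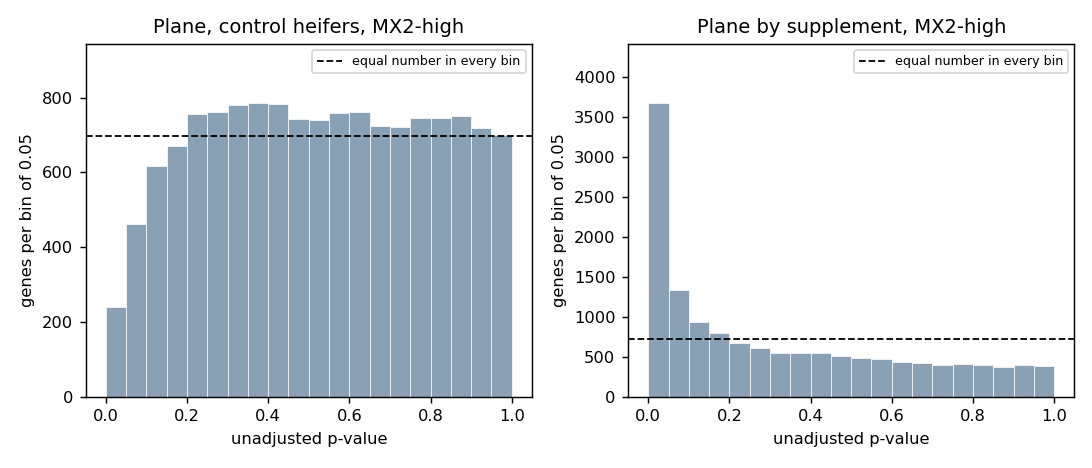
Unadjusted p-values in bins of 0.05 (x axis) against the number of genes per bin (y axis). Left, CON_Low against CON_High among the 21 MX2-high control heifers, where the first bin holds 241 genes; right, the plane by supplement interaction among all 46 MX2-high heifers, where it holds 3676; dashed lines show an equal number in every bin.

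The intervals show what sizes of difference these heifers could still hold. Over the 13968 genes the median log2 fold change of CON_Low over CON_High was -0.02, with quartiles of -0.12 and 0.08, and the median standard error was 0.151. The 95% interval lay wholly within a 1.5-fold change in either direction for 10395 genes (74.4%) and within a 2-fold change for 13335 (95.5%). These intervals are those of single genes, not adjusted for the number of genes. For the remaining genes a change of more than 1.5-fold lies inside the interval.

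How tightly genes were bounded differed between classes of abundance. Of 160 genes with a mean under 1 CPM, 8.75% had intervals within 1.5-fold, and of 3862 genes from 1 to 10 CPM, 45.1% did. The share was 86.9% of 7852 genes from 10 to 100 CPM and 87.7% of 1994 genes from 100 to 1000 CPM. The 100 genes above 1000 CPM were less tightly bounded, at 70.0%, and were also the 100 most abundant genes on a count scale that is not corrected for gene length. Their log2 fold changes ran from -0.59 to 0.34 with a median of -0.07, beside -0.02 over all genes, and 1 of the 100 (1%) had an unadjusted p under 0.05, beside 1.73% over all genes.

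Genes that varied with MX2 from heifer to heifer had fold changes between the planes that centred near 0. With Spearman's rho of at least 0.8 with MX2 over the 21 heifers, 190 genes (1.36% of those tested) followed it, and the highest rho was 0.98. These genes share libraries with MX2, and the list was drawn from the same heifers, so the counts are descriptive. Their median log2 fold change between planes was -0.02, with quartiles of -0.07 and 0.05, the same median as over all genes. Among them 1 gene (0.526%) had an unadjusted p under 0.05, beside 1.73% over all genes, and 0 were DEG in edgeR's quasi-likelihood test. As MX2 also set the selection of heifers, nothing is read from that count. Their intervals were wider than those of most genes, with 53.7% lying within 1.5-fold. Within CON_Low alone 274 genes reached that rho and within CON_High alone 326; the 124 that reached it in both made up 45.3% of the first and 38.0% of the second. In bulk tissue, more cells that respond and more RNA per responding cell cannot be told apart.

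A further 20 genes ran opposite to MX2, with rho of -0.8 or below, and had a median log2 fold change of -0.15. The 68 genes with rho of -0.8 or below with the share of the 100 most abundant genes had a median of 0.06, and 57 of them were nominally higher in CON_Low. The 118 genes that followed that share with rho of at least 0.8 had a median of -0.10. Of these, 111 were nominally lower in CON_Low, beside 7642 of all 13968 genes. Of these 118, 0 had an unadjusted p under 0.05 in edgeR's quasi-likelihood test, beside 1.73% over all genes. The share itself was lower by 0.863 percentage points in CON_Low, within the spread given above, and its part in those values was not tested.

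Spread between heifers was larger on the high plane for most genes when all 21 were counted, and depended on 1 heifer. The SD of log2 CPM was larger in CON_High than in CON_Low for 9889 of 13968 genes (70.8%), with median SDs of 0.357 and 0.299. Without CON_High replicate 11 it was larger for 7434 (53.2%), with a CON_High median of 0.304. Without CON_Low replicate 2 the count was 10560 (75.6%). No test was made of the difference in spread.

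Few genes had large fold changes. Beyond a log2 fold change of 1 there were 22 genes, 14 higher and 8 lower in CON_Low, 14 of them with an unadjusted p under 0.05. The heifer with the highest value was then left out and the change recomputed as a log2 ratio of mean CPM, not by edgeR. For 18 of the 22 (81.8%) it was then under 1 in size or reversed. Leaving out the highest heifer tends to shrink the change of genes chosen for its size, and the part of the changed measure was not tested. That heifer was CON_Low replicate 2 for 6 genes and CON_Low replicate 14 for 3. Over all genes tested, 6 had more than 50% of the summed CPM of the 21 heifers in a single heifer, which was CON_Low replicate 2 for 4 of them.

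The genes described next are, in either direction, the 2 with the smallest p-values, by identifier only, with values as CPM scaled by TMM factors (trimmed mean of M-values). ENSBTAG00000048135 was 5.95 CPM at the lowest, 21.4 at the median and 2082 at the highest in CON_Low. In CON_High the lowest, median and highest were 2.90, 20.9 and 65.9 CPM. The medians were thus nearly equal, and the highest value belonged to CON_Low replicate 14, followed by 177 CPM in CON_Low replicate 2. The log2 fold change was 3.30 (SE 0.98, unadjusted p = 0.00266, adjusted p = 0.998 in edgeR's quasi-likelihood test). It was 0.63 without CON_Low replicate 14 and 0.58 in DESeq2. The library codes start with 1 of 6 prefixes, JE1 to JE6, each of which holds heifers of both planes, and the gene's mean was higher in CON_Low in 4 of the 6. Here and for the genes below, counts by prefix describe the same heifers that chose the gene, so they are no separate support. Some prefixes hold only 1 heifer of a plane.

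In ENSBTAG00000013017 the difference was carried by several heifers. Its lowest, median and highest values were 3.99, 5.66 and 6.79 CPM in CON_Low and 2.91, 4.52 and 5.70 CPM in CON_High. The ranges overlapped, with 5 of 10 CON_Low heifers above every CON_High heifer and 4 of 11 CON_High heifers below every CON_Low heifer. The log2 fold change was 0.37 (SE 0.13, 95% interval 0.09 to 0.65, unadjusted p = 0.0108, adjusted p = 0.998 in edgeR's quasi-likelihood test). The mean was higher in CON_Low in 5 of 6 library prefixes. The gene is a low one, with 34 to 84 counts in a heifer.

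ENSBTAG00000016002 had the smallest p-value of all genes tested. Its lowest, median and highest values were 3.30, 4.39 and 5.17 CPM in CON_Low and 3.84, 6.30 and 9.08 CPM in CON_High. CON_Low heifers lay close together, and 8 of 11 CON_High heifers were above the highest of them. The log2 fold change was -0.60 (SE 0.15, 95% interval -0.91 to -0.29, unadjusted p = 0.00059, adjusted p = 0.998 in edgeR's quasi-likelihood test). The mean was lower in CON_Low in 6 of 6 library prefixes, by as little as 4.82 against 5.07 CPM in JE3, on 42 to 114 counts in a heifer.

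ENSBTAG00000019652 was 9.30, 15.3 and 17.3 CPM at the lowest, median and highest in CON_Low and 12.9, 18.9 and 44.3 CPM in CON_High. The highest CON_High value was that of replicate 11, and 7 of 11 CON_High heifers were above every CON_Low heifer. The log2 fold change was -0.53 (SE 0.17, 95% interval -0.88 to -0.18, unadjusted p = 0.00449, adjusted p = 0.998 in edgeR's quasi-likelihood test), and -0.36 without CON_High replicate 11. The mean was lower in CON_Low in 6 of 6 library prefixes.

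**Figure D4:**
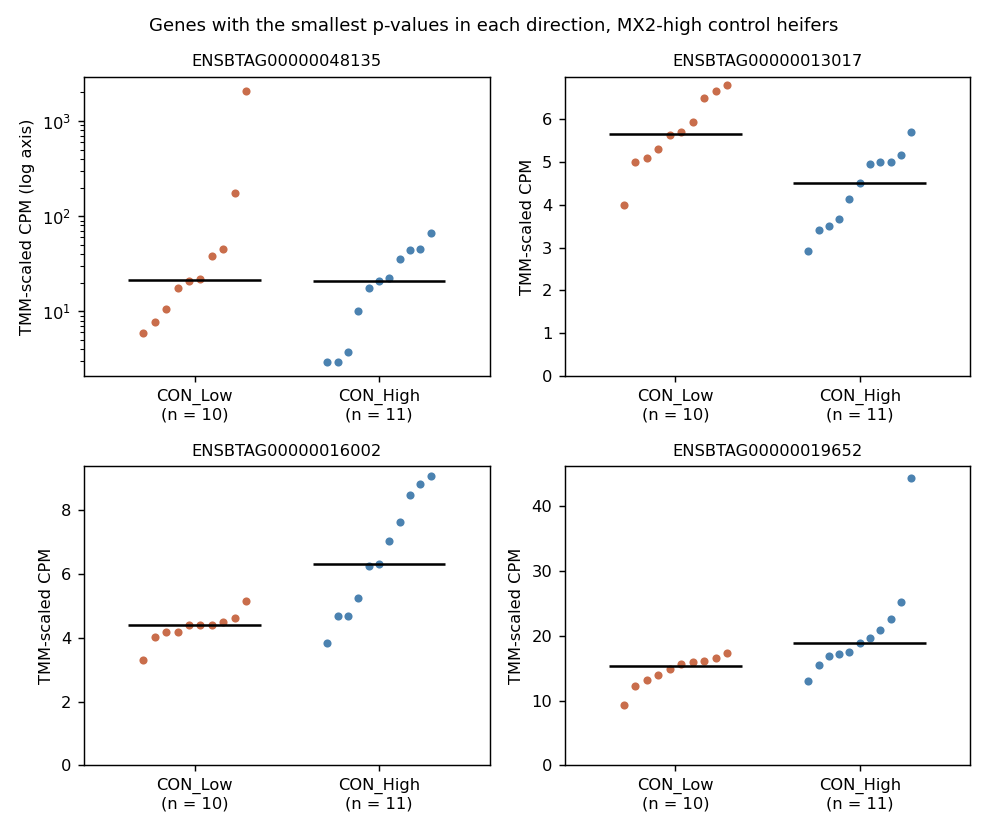
TMM-scaled CPM of the 4 genes in each MX2-high control heifer, by plane; the upper left panel has a log axis, points are single heifers and bars are medians. ENSBTAG00000048135 has nearly equal medians and a single CON_Low heifer at 2082 CPM, whereas 8 of 11 CON_High heifers lie above every CON_Low heifer for ENSBTAG00000016002.

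The MX2-high PUFA heifers, which played no part in choosing those genes, gave another measurement of the contrast between planes. Its SE and p-values came from a fit shared with the control heifers, estimate of spread included, so they depend partly on that choice. In a fit of all 46 MX2-high heifers, ENSBTAG00000016002 was a DEG between PUFA_Low and PUFA_High, with a log2 fold change of -0.77 (SE 0.19, adjusted p = 0.00354 over 14355 genes in edgeR's quasi-likelihood test). Median values were 3.90 CPM in the 11 PUFA_Low heifers and 7.17 CPM in the 14 PUFA_High heifers, with ranges of 1.77 to 7.87 and 3.82 to 11.9 CPM that overlapped. ENSBTAG00000019652 had a log2 fold change of -0.51 (SE 0.17, adjusted p = 0.0265), past the adjusted threshold but not the fold limit, with medians of 13.4 and 17.1 CPM. Passing was common in this contrast: 3932 of the 14355 genes passed the adjusted threshold without a fold limit. With that limit 753 (5.25%) were DEG, of which 425 (2.96%) were lower on the low plane. PUFA_Low ran from 7.97 to 19.5 CPM and PUFA_High from 12.5 to 34.3 CPM. The adjusted p of ENSBTAG00000016002 was 0.278, at a log2 fold change of -0.79, when the share of the 100 most abundant genes entered the model, and that of ENSBTAG00000019652 was 0.364, at -0.62. If the plane labels of the PUFA heifers were the other way round, both directions would be reversed.

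**Figure D5:**
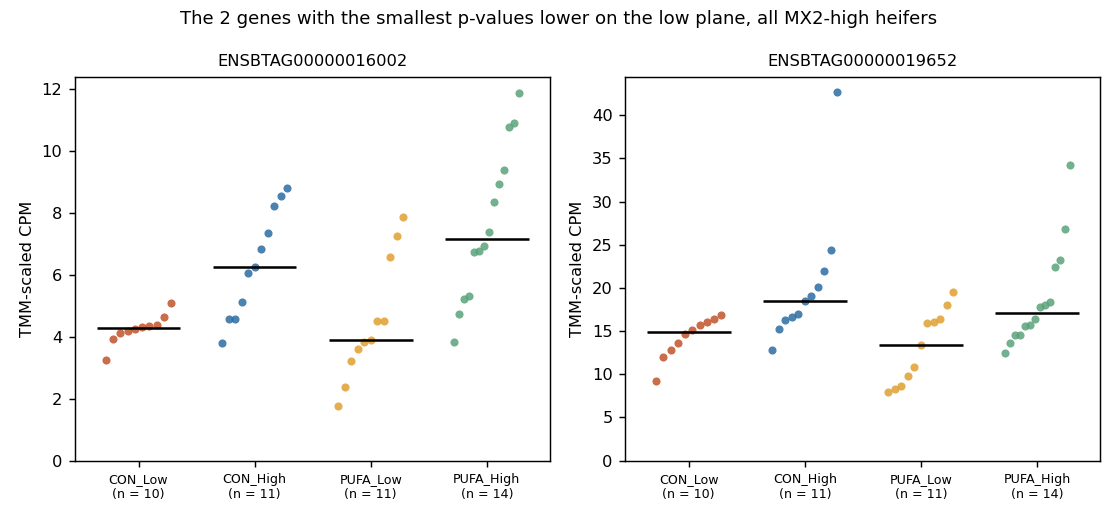
TMM-scaled CPM of ENSBTAG00000016002 (left) and ENSBTAG00000019652 (right) in each of the 46 MX2-high heifers, by dietary group, with bars at the medians. In each supplement group the median is lower on the low plane, at 3.90 against 7.17 CPM for ENSBTAG00000016002 in the PUFA heifers, and the ranges overlap.

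The genes with higher values in CON_Low were also measured in the PUFA heifers. Because they were chosen on the control contrast, which is part of the interaction, the choice favoured a negative interaction and its p-values are not independent of it. ENSBTAG00000013017 had medians of 4.56 CPM in PUFA_Low and 4.66 CPM in PUFA_High, and its plane by supplement interaction was -0.59 on the log2 scale (SE 0.21, adjusted p = 0.0659 in edgeR's quasi-likelihood test). ENSBTAG00000048135 had medians of 13.5 and 7.07 CPM in PUFA_Low and PUFA_High and an interaction of -3.29 (SE 1.22, adjusted p = 0.0779), which was -0.61 without CON_Low replicate 14. For the genes with lower values in CON_Low the interaction was -0.18 (SE 0.27, adjusted p = 0.713) for ENSBTAG00000016002 and 0.0029 (SE 0.25, adjusted p = 0.995) for ENSBTAG00000019652, values that do not show the plane to act alike under both supplements.

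The contrast between planes differed between supplements for many genes. The interaction gave 986 DEG of 14355 genes tested (6.87%), of which 557 (3.88%) had a larger log2 ratio of low to high plane in the PUFA heifers and 429 (2.99%) a smaller one. Without CON_High replicate 11 there were 501, and without CON_Low replicate 2 there were 1400. With the plane labels of the PUFA heifers exchanged there were 66, of which 29 were larger and 37 smaller, and with the replicate number as a block there were 0 (1779 genes at an unadjusted p under 0.05). Library composition differed along with it: the 100 most abundant genes held 26.7% ± 3.32 of counts in PUFA_Low (SD, n = 11) and 21.5% ± 2.04 in PUFA_High (SD, n = 14), against 21.7% and 22.6% in CON_Low and CON_High. With that share as a covariate the interaction gave 0 DEG in edgeR's quasi-likelihood test, with 414 genes at an unadjusted p under 0.05 in place of 3676. The shares of the PUFA planes overlapped, running from 22.4% to 31.7% in PUFA_Low and from 18.4% to 25.2% in PUFA_High. With the share in the model, 1201 genes had an unadjusted p under 0.05 between the PUFA planes and 0 were DEG.

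Genes called between the planes in the PUFA heifers were then read in the control heifers. Both contrasts came from 1 fit, with shared scale factors, filter and estimate of spread. The 753 PUFA DEG (5.25%) were 328 higher (2.28%) and 425 lower (2.96%) on the low plane. With upper-quartile factors in place of TMM the split turned, to 386 higher and 334 lower. At an adjusted p under 0.001 it was 125 and 30. With the replicate number as a block it was 198 and 237 (435 DEG), and with the share as a covariate there were 0 DEG. The 328 had a median log2 fold change of 0.75 in the PUFA heifers and -0.13 in the control heifers, where 6 (1.83%) had an unadjusted p under 0.05. The 425 had medians of -0.70 and 0.08, and 2 (0.471%) had such a p in the control heifers. Over all 14355 genes in that fit, the control median was -0.0049 and 355 genes (2.47%) had such a p. With the PUFA plane labels exchanged, the control medians would have the same sign as the PUFA medians. Their size varied with single libraries. As differences of mean log2 CPM over the 312 and 416 of these genes that were also tested in the 21 heifers alone, the control medians were -0.10 and 0.09 with all 21 heifers, -0.0054 and 0.0037 without CON_High replicate 11, and -0.15 and 0.14 without CON_Low replicate 2.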

How the data were processed

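Endometrial RNA was sequenced as single-end Illumina TruSeq libraries. Per the labels and the study's methods, the authors aligned reads with TopHat2 2.0.9 to UMD3.1 and counted them on genes with HTSeq 0.5.4p5. The strand setting was not given in the sources used here, so overlapping genes may share reads. The deposited values are raw read counts, unnormalized, for 24616 genes; 4821 were without a count in all 21 heifers. Library totals are given above. No 2 of the 100 pairs of libraries compared within a group agreed within sampling noise.

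Counts were tested with edgeR 4.0.16 in R 4.3.3 (TMM factors, filterByExpr, glmQLFit and glmQLFTest). The comparison of planes was fitted on the 21 heifers, and the interaction and the PUFA contrast on the 46 MX2-high heifers. A DEG had an adjusted p under 0.1 and a fold change above 1.5; the study states a rate of 0.1%, tried as an adjusted p under 0.001. DESeq2 1.42.0 and limma 3.58.1 were alternatives. Library measures were compared with two-sided permutation tests of 100000 resamples in SciPy 1.17.1. The fitting steps were tested on simulated data. Heifers are separate animals, but their p-values also carry technical spread, since each was sequenced as 1 library.

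The threshold, the heifers and the lists were chosen with earlier results of these data known. Of 37063 genes in the RefSeq table (ARS-UCD2.0), 0 could be paired with the Ensembl identifiers, so pathway and cell marker lists of 279 symbols were not analysed here and no sequences are shown. By the rule for that case the text names MX2 and, in either direction, the 2 genes with the smallest p-values. Alternatives are described in the closing section. Of these, limma-voom and the alternatives of the PUFA contrast were added after seeing the data. The PUFA contrast itself was not among the planned tests.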

Additional observations from a re-analysis of the deposited data

Results flagged for a closer look

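ENSBTAG00000048135 reached 2082 CPM in CON_Low replicate 14, which stood apart from the other MX2-high CON_Low heifers by a gap of 0.918 of the range of the group. Of 8 quantities examined this way in CON_Low, this was the 1 with a heifer so far from the rest. Chance marks about 1 in 20 groups for a quantity chosen without its values, a rate that does not hold here, since the gene was named for its small p-value and its fold change rests on that heifer. CON_High, with 11 heifers, was not examined this way.

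In edgeR's test of the interaction among the MX2-high heifers, 986 genes were called as differing in the contrast between planes between the control and PUFA heifers. With the share of the 100 most abundant genes as a covariate 0 were called, and 0 with the replicate block. Among the genes named above, ENSBTAG00000048135 was called at -3.29 on the log2 scale and ENSBTAG00000013017 at -0.59. Both were chosen on the control contrast, which favoured a negative interaction, and their log2 fold changes between the PUFA planes were 0.033 (adjusted p = 0.983) and -0.20 (adjusted p = 0.322) in edgeR's quasi-likelihood test. The first call is lost in 10 of 20 alternatives, as at -0.28 in DESeq2 (adjusted p = 0.834), and on leaving out any 1 of 7 heifers, as at -0.61 without CON_Low replicate 14 and -2.19 without PUFA_High replicate 5. The second lies close to the fold limit and is lost in 11 of 20 alternatives and on leaving out any 1 of 21 of the 46 heifers, as at -0.56 with upper-quartile factors and at an adjusted p of 0.328 with the replicate block.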

How the results depend on the processing

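The count of 0 DEG between the planes in the control heifers was obtained under 21 alternatives and on leaving out each of the 21 heifers in turn. Of these, the stricter thresholds on the adjusted p could not have changed it. Removal of the fold limit could not either, since the smallest adjusted p of the main fit was 0.998. Nor could the MX2 thresholds of 5, 6 and 7, which gave the same heifers. Genes at an unadjusted p under 0.05 numbered from 106 with the library prefix as a block to 590 with all 28 control heifers. Leaving out single heifers gave 131 (without CON_Low replicate 5) to 444 (without CON_Low replicate 2). The smallest adjusted p under any alternative was 0.102, with all 28 control heifers and the MX2 class in the model. The 3 library measures kept their direction. The log2 fold changes of the 4 named genes kept their direction, that of ENSBTAG00000048135 between 0.58 and 3.58. That of ENSBTAG00000019652 was -0.53 in the main fit and -0.27 with the replicate number as a block.

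The 986 interaction DEG became 653 at an adjusted p under 0.05, 0 under 0.001 and 2206 without a fold limit. They became 0 with the share as a covariate, and 66 with the planes of the PUFA heifers exchanged. Upper-quartile factors gave 648 larger and 346 smaller ratios (994 in all) in place of 557 and 429. Leaving out single heifers gave 501 (without CON_High replicate 11) to 1435 (without PUFA_High replicate 4). The 753 PUFA DEG became 155 at an adjusted p under 0.001, 3932 without a fold limit and 0 with the share as a covariate, and 566 to 998 without single heifers. With the PUFA planes exchanged, ENSBTAG00000016002 and ENSBTAG00000019652 were 0.77 and 0.51 between the PUFA planes and their interactions 1.35 and 1.03. The interaction of ENSBTAG00000019652, close to 0, turned negative with the prefix block (-0.047), the replicate block (-0.30), the share (-0.13), limma-voom (-0.062) and all 60 heifers (-0.16), and ran from -0.15 to 0.12 without single heifers. What caused these changes was not tested.

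Among the MX2-high control heifers, 7 same-numbered pairs across the planes had a mean correlation of 0.083 and a lowest of -0.26. Of these 7, 3 were over 0.1, beside 29 of 103 pairs with different numbers. The numbers were therefore not taken to pair the control heifers. These values do not cover the PUFA heifers. With the number as a replicate block there were 0 DEG between the control planes (398 genes at an unadjusted p under 0.05), 0 interaction DEG (1779 at such a p) and 435 PUFA DEG.

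Intervals were wider for genes of low abundance: 45.1% of those from 1 to 10 CPM and 8.75% of those under 1 CPM had intervals within 1.5-fold. The part of sequencing depth in this was not tested.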
